A study of Mus musculus with 11 samples.

Results

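Angiogenic factors are secreted proteins that tumour and stromal cells use to call in and shape blood vessels. Expression of 8 of them was followed in KP1 cells: the vascular endothelial growth factor (VEGF) family members Vegfa, Vegfb, Vegfc and Pgf, the angiopoietins Angpt1 and Angpt2, the vasodilator peptide adrenomedullin (Adm) and the angiopoietin-like protein Angptl4. They were taken by name from a family of secreted factors, out of 35056 genes present in the libraries. KP1 is a mouse small cell lung cancer (SCLC) line that lacks functional Rb and p53, so both groups share these mutations, and it is a single line. Bulk RNA sequencing covered 2 libraries of untreated cells (control replicates 2 and 3) and 3 libraries of cells given 5 Gy (irradiated replicates 1, 2 and 3), and the time point was 24 h. Nothing in the labels says that the libraries came from separate cultures, so p-values measure only the spread between these samples, which may be technical. Irradiation of tumours can change how they attract vessels and myeloid cells, and the comparison asks which of these factors the irradiated cells themselves expressed at another level.

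VEGF ligands bind the receptor tyrosine kinases Flt1, Kdr and Flt4 on endothelial cells and the coreceptors Nrp1 and Nrp2. Angiopoietins bind Tek (Tie2), and adrenomedullin binds Calcrl paired with Ramp2 or Ramp3. Vegfa, Adm and Angptl4 are classical targets of the hypoxia-inducible factors (HIF), which cells stabilise when oxygen is low. Vegfa is made in several splice forms whose C termini differ in how firmly they hold to heparan sulfate: the form without exons 6 and 7 diffuses freely, the form with exon 7 binds moderately and the form with both is retained at the matrix.

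These forms are set out by sequence because the Vegfa transcripts are grouped by them below. Vegfa (ENSMUSG00000023951.17) lies on the minus strand at chr17:46016993-46032369 of GRCm38. Exon 6 spans chr17:46022277-46022348 and holds 72 bases, or 24 codons. Exon 7 spans chr17:46020991-46021122 and holds 132 bases, or 44 codons. The lines below run 5′ to 3′ on the transcript strand from exon 5 (chr17:46024065-46024094, 30 bases) to the stop codon in exon 8 (chr17:46018858-46018879, 22 bases), taken from GENCODE M21, with the bases between these exons in capitals. The forms are named by the residues of the protein, counted from the first ATG without its signal peptide of 26 residues.
188-residue form (Vegfa-207): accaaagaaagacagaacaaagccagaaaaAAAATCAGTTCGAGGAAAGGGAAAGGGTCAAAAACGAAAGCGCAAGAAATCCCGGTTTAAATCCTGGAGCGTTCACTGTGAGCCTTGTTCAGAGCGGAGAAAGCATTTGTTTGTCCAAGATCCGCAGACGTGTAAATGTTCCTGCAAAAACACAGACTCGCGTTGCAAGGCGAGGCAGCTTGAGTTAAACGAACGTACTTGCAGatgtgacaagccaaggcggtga
164-residue form (Vegfa-202): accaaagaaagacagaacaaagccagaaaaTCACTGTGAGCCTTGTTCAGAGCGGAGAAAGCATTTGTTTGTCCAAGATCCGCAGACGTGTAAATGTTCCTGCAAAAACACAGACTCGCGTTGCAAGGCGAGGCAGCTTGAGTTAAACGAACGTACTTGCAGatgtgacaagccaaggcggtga
120-residue form (Vegfa-201): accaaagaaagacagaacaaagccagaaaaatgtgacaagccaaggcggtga
The 188-residue form differs from the 164-residue form by exon 6 alone: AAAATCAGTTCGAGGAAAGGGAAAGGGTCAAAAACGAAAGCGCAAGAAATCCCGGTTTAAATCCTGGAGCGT

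**Figure D1:**
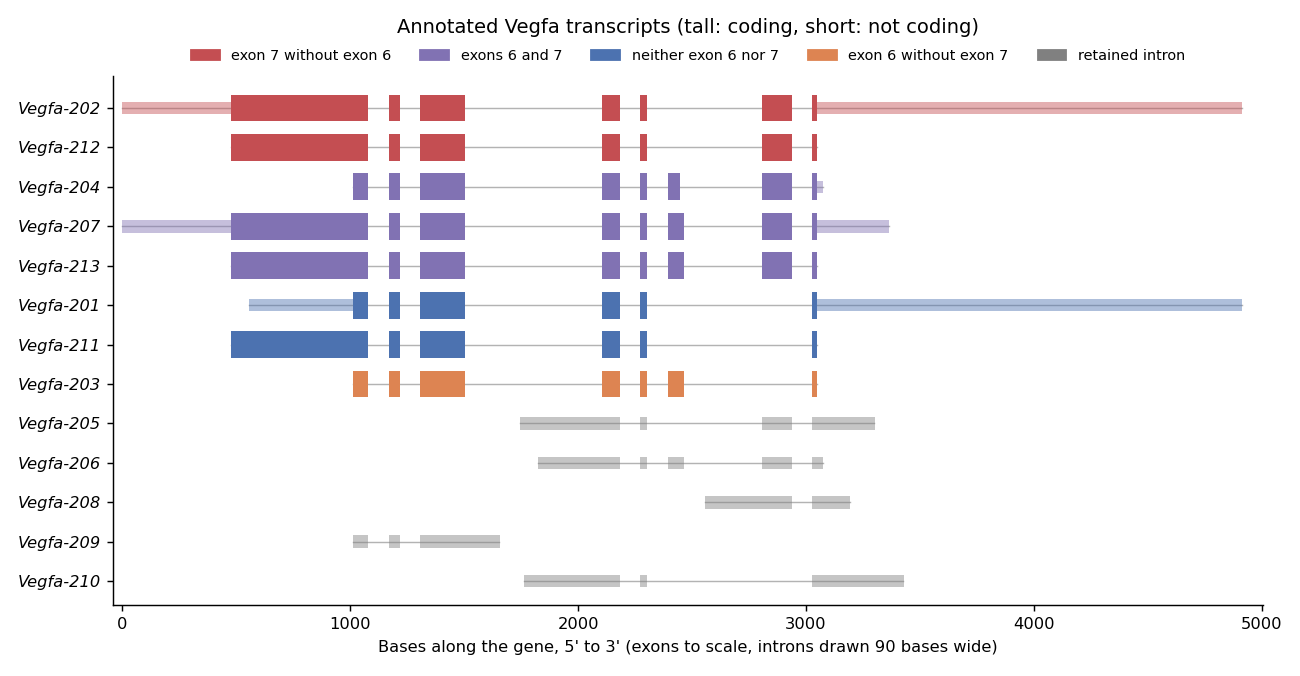
The 13 annotated Vegfa transcripts drawn 5′ to 3′ along the gene (horizontal axis, bases), with tall blocks for coding and short blocks for non-coding exon parts and colours for the coding exon content. Vegfa-201 and Vegfa-202 carry the long last exon, Vegfa-207 ends earlier, and the 5 retained-intron transcripts are short pieces of the gene without an annotated coding sequence.

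Depth was 21185956 to 31036317 estimated reads per library. An average read came from a transcript of 5463 and 4729 bases in the controls and of 3715, 3625 and 3998 bases in the irradiated libraries, so the length of what was sequenced separated the groups. Its part in the results was not tested, and each tested factor is given with an offset for transcript length and with one for GC content. Of 8 neuroendocrine SCLC markers, all tested, 3 were called as higher (Uchl1, Calca and Syp, log2 fold changes of 1.14, 1.18 and 0.64) and 1 as lower (Ncam1, -1.20) in irradiated cells. Of all tested genes, 12.7% were called as higher and 13.0% as lower. With the offset for transcript length none of these markers was called. Their edgeR adjusted p was then 0.101 for Uchl1, 0.3 for Calca, 0.0781 for Syp and 0.126 for Ncam1. Among the others, Insm1 and Chga were abundant in every library, at 263 to 502 TPM (Salmon's abundance, scaled for transcript length within a library) for Insm1 and 278 to 475 TPM for Chga, and for both the groups overlapped. Of 8 endothelial markers, Cdh5, Emcn and Cldn5 had 0 to 2 reads in every library. Pecam1 had 43 and 26 reads in the controls against 10, 16 and 11 after irradiation. Vwf had 26 and 8 against 2, 5 and 9, and Kdr 15 and 15 against 5, 6 and 11. Tie1 went the other way, with 0 and 2 reads against 4, 4 and 8. The list summed to 11.7 and 14.5 TPM in the controls against 7.90 to 11.1 TPM after irradiation, most of it from Tek. Of 6 leukocyte markers, Csf1r, Adgre1 and Cd3e were at or near 0, while Ptprc had 24 and 9 reads in the controls against 1, 8 and 5. The list summed to 4.55 and 6.91 TPM against 1.21 to 1.62 TPM, most of it from Cd68. Of 6 stromal markers, Col3a1 and Acta2 had no read, and the list summed to 57.1 and 67.3 TPM against 36.9 to 51.9 TPM, most of it from Pdgfra.

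No angiogenic factor passed the test. The test was the quasi-likelihood test of edgeR over 14106 genes, and p-values were adjusted over all of these genes after Benjamini and Hochberg. Of the 8 factors, 7 held enough reads to be tested, and 0 of 7 were called at an adjusted p under 0.05, whereas 25.6% of all tested genes were called, 12.7% as higher and 13.0% as lower in irradiated cells. At an unadjusted p under 0.05 there was 1 factor, Vegfb. DESeq2 also called 0, of 8 factors tested, with 1 at an unadjusted p under 0.05. At the thresholds of the study, an adjusted p under 0.05 and a log2 fold change above 1.5 or below -1.5, 3.53% of tested genes and 0 factors were called. The median log2 fold change was 0.40 over the 7 factors and 0.02 over all tested genes. In CPM (normalised reads, scaled to library size), the irradiated and control libraries did not overlap for 4 of the 7 factors, Vegfb and Adm being higher and Angpt1 and Angpt2 lower in irradiated cells (any gap was counted, and that of Adm was 0.677 against 0.676 CPM), but 59.4% of all tested genes separated in this way.

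**Figure D2:**
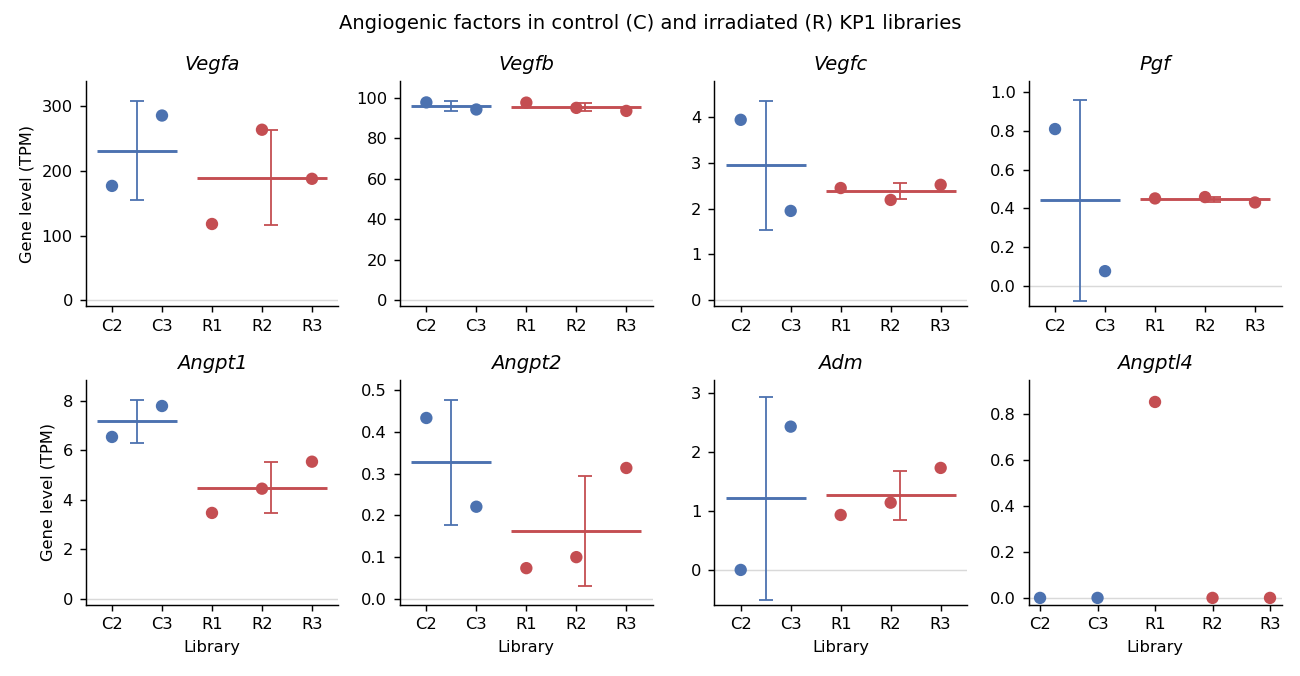
Gene level in TPM (vertical axis, linear) of the 8 angiogenic factors in control libraries C2 and C3 and irradiated libraries R1, R2 and R3 (horizontal axis). Points are libraries, lines are group means and bars are SD (n = 2 and n = 3, not drawn for Angptl4); Angpt1 is the factor whose irradiated libraries, at 3.47 to 5.54 TPM, all lie below both controls.

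The factors spanned a wide range of levels. In TPM, which is scaled for transcript length, Vegfa had 118 to 286 and Vegfb 93.6 to 97.8 over the 5 libraries, and the ranges of this pair did not overlap. Coding transcripts of Vegfa alone had 92.2 to 153 TPM, which overlapped with the range of Vegfb over all its transcripts. The separation of the ranges therefore depended on the retained-intron transcripts of Vegfa. Over all transcripts, the mean of Vegfa was higher than that of 95.2% of the tested genes, and the mean of Vegfb was higher than that of 87.3%. Angpt1 followed at 3.47 to 7.79 TPM, well apart from Vegfb. Vegfc (1.95 to 3.94 TPM) overlapped with Angpt1 in range but lay below it in each of the 5 libraries, and Adm (0 to 2.43 TPM) lay below Vegfc except in control replicate 3. Pgf (0.0747 to 0.810 TPM), Angpt2 (0.0736 to 0.434 TPM) and Angptl4 (0 to 0.853 TPM) lay at the bottom and could not be ranked among themselves. KP1 cells therefore contained mostly Vegfa and Vegfb mRNA of this group, with or without irradiation.

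Vegfa, the main driver of endothelial growth and vessel permeability, had 124 and 192 CPM in the controls and 153, 291 and 233 CPM in the irradiated libraries. Irradiated replicate 1 lay between the controls, and the other two irradiated libraries lay above both. Irradiated cells were at a log2 fold change of 0.51 ± 0.29 (SE, n = 2 and 3, 95% confidence interval -0.14 to 1.17, edgeR adjusted p = 0.212), so the interval held everything from a 0.905-fold to a 2.25-fold level. It was above 0 in all 18 alternative analyses, between 0.02 and 0.88, and adjusted p ran from 0.0399 to 0.965. Keeping every gene with a read was the only setting to call Vegfa (log2 fold change 0.56, adjusted p = 0.0399).

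On the TPM scale the order of the group means was the other way round. Vegfa had 177 and 286 TPM in the controls and 118, 264 and 188 TPM in the irradiated libraries, or 231 ± 76.7 TPM against 190 ± 73.1 TPM (SD, n = 2 and n = 3), and the groups overlapped (exact two-sided permutation test, p = 0.5; with 2 against 3 libraries the smallest possible p is 0.1). TPM is not adjusted between libraries, and the ratio of group means over all tested genes had a median of 0.802, close to the 0.821 of Vegfa. Using the effective transcript length estimated by Salmon as an offset, the log2 fold change of Vegfa was 0.02 (95% confidence interval -0.76 to 0.81). With an offset for annotated transcript length it was 0.58 (-0.05 to 1.20), and with an offset for GC content 0.49 (-0.15 to 1.13), as large as without. Reads of Vegfa had come from longer transcripts in irradiated cells: their mean transcript length was 2465 and 2680 bases in the controls and 3016, 2978 and 3070 bases in the irradiated libraries.

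That shift was visible among the individual transcripts. Vegfa-202, which encodes the 164-residue form and ends in the long last exon, had 31.5 and 69.9 TPM in the controls and 52.2, 93.5 and 87.0 TPM in the irradiated libraries. Its log2 fold change was 1.11 ± 0.43 (SE, unadjusted p = 0.0447, edgeR adjusted p = 0.229 over 40440 transcripts). Vegfa-201, which encodes the freely diffusing 120-residue form and shares the long last exon, had 8.85 and 12.4 TPM in the controls and 12.5, 20.9 and 18.4 TPM after irradiation. Its log2 fold change was 1.20 ± 0.31 (unadjusted p = 0.0105, adjusted p = 0.126). Irradiated libraries lay above both controls for Vegfa-201 (at the closest, 12.5 against 12.4 TPM) but overlapped with them for Vegfa-202.

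Vegfa-207, the matrix-bound 188-residue form, had 34.4 and 13.8 TPM in the controls and 5.22, 13.1 and 10.4 TPM in the irradiated libraries. Its log2 fold change was -0.82 ± 0.54 (adjusted p = 0.444), and without control replicate 2 it was -0.03. Vegfa-211, a shorter transcript of the 120-residue form, had a log2 fold change of -0.18 (adjusted p = 0.919). The remaining tested Vegfa transcripts were 4 retained-intron pieces, with log2 fold changes of -1.48 to 0.63 and adjusted p from 0.648 to 0.806. Vegfa-203 (exon 6 without exon 7) was estimated in control replicate 3 only, with 108.3 reads, the retained-intron Vegfa-206 had 3.2 reads in irradiated replicate 2, and Vegfa-204, Vegfa-212 and Vegfa-213 had none. Of 13 Vegfa transcripts 8 were tested and 0 were called. This was the background as well, since 0.00% of all transcripts passed (lowest adjusted p 0.0893), although 20.8% of them, and 2 of the 8 Vegfa transcripts, had an unadjusted p under 0.05. Salmon divides reads that fit several transcripts by a model, so the levels of overlapping transcripts are estimates that depend on each other.

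Grouped by coding exon content, transcripts with exon 7 but not exon 6 made up 17.8% and 24.5% of the summed Vegfa TPM in the controls and 44.3%, 35.4% and 46.3% in the irradiated libraries. All irradiated libraries lay above both controls, at 42.0% ± 5.78 against 21.1% ± 4.73 (SD), a difference of 20.9 percentage points (exact permutation test, p = 0.1, the smallest possible). The difference kept its direction when reads replaced TPM (19.4 points), when coding transcripts alone formed the total (25.3 points) and when each library was left out (17.5 to 24.2 points). How often transcript shares of other genes separate the groups was not computed. In CPM, 59.4% of all tested genes did, so separation of a share is a description. Reads of the class with exon 7 but not exon 6 all went to Vegfa-202. It differs from Vegfa-207 by the long last exon as well as by exon 6. Vegfa-201 and Vegfa-202, which carry that last exon, held 53.8% and 70.1% of Vegfa reads in the controls. In irradiated replicates 1, 2 and 3 they held 84.9%, 83.2% and 86.7%. Whether the share followed exon content or the 3′ end was not tested. Transcripts with both exons made up 19.4% and 4.83% in the controls and 4.43% to 5.54% after irradiation, a difference of -7.16 points that rested on control replicate 2 and was 0.139 points without it (exact permutation test, p = 0.3). By reads they made up 25.7% and 6.48% against 3.80%, 5.25% and 4.75%, all irradiated libraries lying below both controls (exact permutation test, p = 0.1, the smallest possible). Transcripts with neither exon made up 14.9% and 12.7% against 30.6%, 9.66% and 15.3% (p = 0.8, exact permutation test).

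Retained-intron transcripts held 48.0% and 46.4% of the summed Vegfa TPM in the controls and 20.7%, 50.0% and 32.9% in the irradiated libraries (exact permutation test, p = 0.4). By reads their share was smaller, at 15.2% and 16.7% against 4.32%, 10.8% and 6.64%, and every irradiated library lay below both controls (exact permutation test, p = 0.2). Coding transcripts alone had 92.2 and 153 TPM in the controls and 93.5, 132 and 126 TPM in the irradiated libraries. With the coding transcripts of every gene summed on their own, a choice made after the transcripts were seen, the log2 fold change of Vegfa was 0.59 (95% confidence interval -0.03 to 1.21, edgeR adjusted p = 0.137). The total of coding Vegfa mRNA was thus not distinguishable between the groups. The share of it estimated as the 164-residue form was 34.2% and 45.6% in controls and 55.8%, 70.8% and 68.9% after irradiation. This share separated the groups, while the level of the form overlapped. In control replicate 3, Vegfa-203 took 21.7% of the coding TPM with 108.3 reads, and no other library held it. That was 33.3 of 153 TPM, beside 69.9 TPM of the 164-residue form. With Vegfa-203 taken out of the total, the share in control replicate 3 would exceed that of irradiated replicate 1. The separation of the coding share therefore depended on that estimate. How those reads would otherwise have been assigned was not tested.

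**Figure D3:**
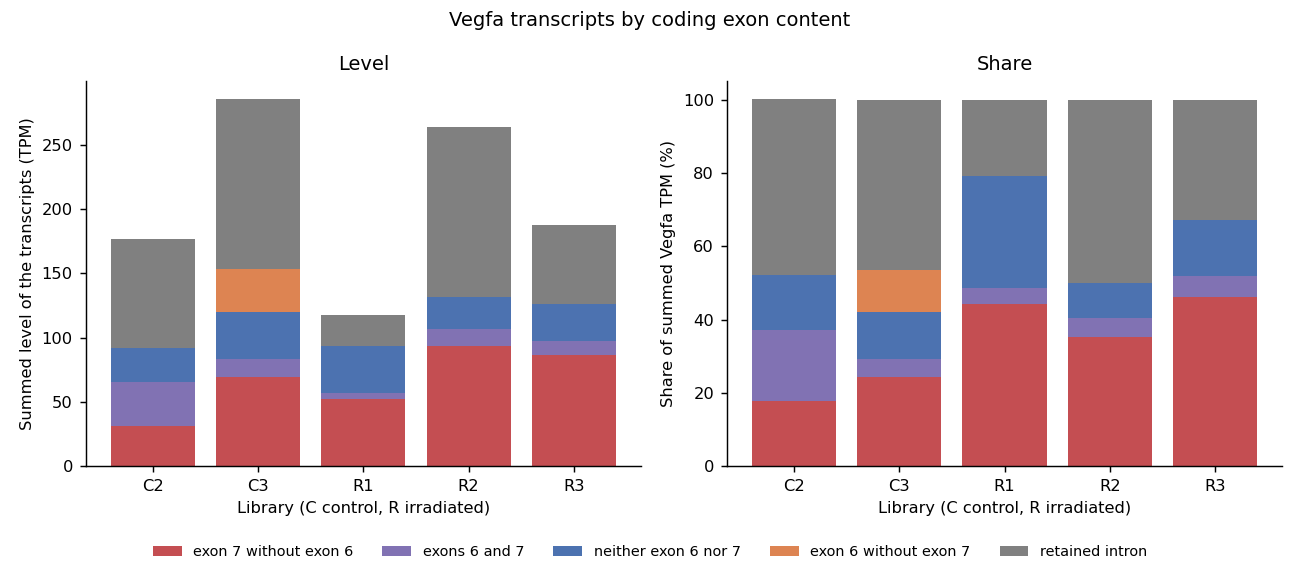
Vegfa transcripts summed by coding exon content in each library, as a level in TPM (left) and as a share of all Vegfa TPM in percent (right), with C for control and R for irradiated libraries (horizontal axes). The share with exon 7 but not exon 6 was 17.8% and 24.5% in C2 and C3 and 35.4% to 46.3% in R1 to R3.

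Vegfb (ENSMUSG00000024962.13, chr19:6982473-6987651, minus strand), a ligand of Flt1 known for its role in fatty acid uptake and vessel survival, was the factor with the narrowest spread. It had 43.8 and 45.3 CPM in the controls and 61.2, 59.4 and 55.7 CPM in the irradiated libraries, all above both controls. This gave a log2 fold change of 0.40 ± 0.14 (SE, 95% confidence interval 0.08 to 0.72, unadjusted p = 0.0205, edgeR adjusted p = 0.0669), or 1.32-fold. Its call depended on the scaling: the adjusted p was 0.0455 with upper quartile normalization and 0.0503 with library totals alone. Its fold change also depended on offsets for transcript properties: it was -0.17 with the offset for transcript length (95% confidence interval -0.49 to 0.16) and 0.02 with the offset for GC content (-0.30 to 0.34). In TPM, Vegfb had 97.8 and 94.3 in the controls and 97.7, 95.1 and 93.6 after irradiation, which overlapped. This total included the retained-intron Vegfb-203, at 18.2 and 6.42 TPM in the controls and 0.715, 6.07 and 1.64 TPM after irradiation. Without it, the summed coding forms lay higher in every irradiated library than in both controls. For coding transcripts alone the log2 fold change of Vegfb was 0.37 (edgeR adjusted p = 0.0884).

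Vegfb is spliced into 2 coding forms. The longer reading frame, Vegfb-201, encodes a precursor of 207 residues and had 54.0 and 56.8 TPM in the controls and 68.6, 60.8 and 63.8 TPM in the irradiated libraries, all higher (log2 fold change 0.72 ± 0.15, unadjusted p = 0.00414, edgeR adjusted p = 0.0962). Vegfb-202, with a precursor of 188 residues, had 25.7 and 31.1 TPM against 28.4, 28.2 and 28.2 TPM, which overlapped (0.49 ± 0.23, adjusted p = 0.297). Vegfb-201 made up 67.8% and 64.7% of both forms in the controls and 70.7%, 68.4% and 69.3% in the irradiated libraries. The irradiated shares lay above both controls by a small margin, at 69.5% ± 1.16 against 66.2% ± 2.19 (SD, exact permutation test, p = 0.1, the smallest possible). The rate of such separation among shares of other genes was not computed.

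Vegfc (ENSMUSG00000031520.6), the ligand of Flt4 that drives lymphatic growth, was low. It had 134 and 60 reads in the controls and 88, 54 and 69 reads in the irradiated libraries, or 4.69 and 2.25 CPM against 3.50, 2.47 and 2.51 CPM. All irradiated libraries lay between the controls, which differed from each other by more than the groups did. The log2 fold change was -0.30 ± 0.43 (95% confidence interval -1.29 to 0.70, edgeR adjusted p = 0.644) and turned to 0.35 without control replicate 2. It was -0.46 with the offset for transcript length and -0.15 with that for GC content.

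Pgf (ENSMUSG00000004791.7), the placental growth factor that binds Flt1, was close to the limit of detection, taken as 3 reads. It had 12 and 1 reads in the controls and 7, 9 and 7 reads in the irradiated libraries. These reads were assigned to the retained-intron transcript Pgf-202 in every library except irradiated replicate 2, where all 9 went to the coding Pgf-201. Its log2 fold change of 0.43 ± 1.01 (95% confidence interval -1.87 to 2.73, edgeR adjusted p = 0.781) left the direction undetermined at this depth: it was -0.23 with the offset for transcript length, 0.18 with that for GC content, -0.40 without control replicate 3 and 2.92 without control replicate 2.

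Angpt1 (ENSMUSG00000022309.9), the Tek agonist that stabilises vessels, had 13.7 and 16.2 CPM in the controls and 9.12, 12.3 and 13.5 CPM in the irradiated libraries. All irradiated libraries lay below both controls, though replicate 3 did so by a small margin. The log2 fold change was -0.35 ± 0.24 (95% confidence interval -0.90 to 0.19, edgeR adjusted p = 0.291), and it was -0.14 with the offset for transcript length and -0.01 with that for GC content. In TPM the groups were also separate, at 7.17 ± 0.888 against 4.49 ± 1.04 (SD, exact permutation test, p = 0.1, the smallest possible), a ratio of 0.626 beside the median of 0.802 over all tested genes. An exon of the gene Gm17473, on the opposite strand, overlaps an exon of Angpt1. Whether the counting used strand is not given in the sources used here, so reads within the overlap cannot be told apart.

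Angpt2 (ENSMUSG00000031465.6), which competes with Angpt1 for Tek and loosens vessels, was found in few reads. It had 22 and 10 reads in the controls and 4, 5 and 2 reads in the irradiated libraries. The irradiated libraries lay below both controls and at or near the limit of 3 reads. Its log2 fold change of -1.89 ± 0.84 (95% confidence interval -3.81 to 0.02, unadjusted p = 0.0521, edgeR adjusted p = 0.125) was below 0 in all 15 alternatives that tested the gene, from -2.30 to -1.12 (-1.82 with the offset for transcript length, -1.81 with that for GC content), and no alternative called it. Both reads of irradiated replicate 3 were assigned to a short transcript without coding sequence, and in TPM, where it counted more, that library (0.314) lay between the controls (0.434 and 0.221). The mRNA ratio of Angpt1 to Angpt2 was therefore large in all libraries, but the level of Angpt2 was too low to measure a change of the ratio.

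Adm (ENSMUSG00000030790.15), the precursor of a peptide that dilates vessels and acts on endothelial Calcrl, had 0 and 18 reads in the controls and 17, 19 and 33 reads in the irradiated libraries. In CPM the irradiated libraries (0.677, 0.868 and 1.20) lay above control replicate 2 (0), and irradiated replicate 1 was level with control replicate 3 (0.676). The log2 fold change was 1.44 ± 1.15 (95% confidence interval -1.19 to 4.07, edgeR adjusted p = 0.377). The offset for transcript length gave 1.03 and that for GC content 1.44. It hung on which control was used: without control replicate 2 it was 0.46 (adjusted p = 0.742), and without control replicate 3 the fitted value was 7.57 (adjusted p = 0.0173). The latter sets the irradiated libraries against a lone control with 0 reads, which is assumed to vary like the other libraries, and its size depends on the prior count and is no bound. In TPM, Adm was 2.43 in control replicate 3, above 0.932, 1.14 and 1.73 in the irradiated libraries.

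Angptl4 (ENSMUSG00000002289.16), a lipoprotein lipase inhibitor with effects on vessel permeability, had 0 reads in both controls and in irradiated replicates 2 and 3, and 24 reads in irradiated replicate 1. Of these, 19.9 were assigned to a transcript annotated for nonsense-mediated decay and 4.1 to the coding one. With reads in a single library, it did not pass the filter on low counts, and no fold change is given.

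**Figure D4:**
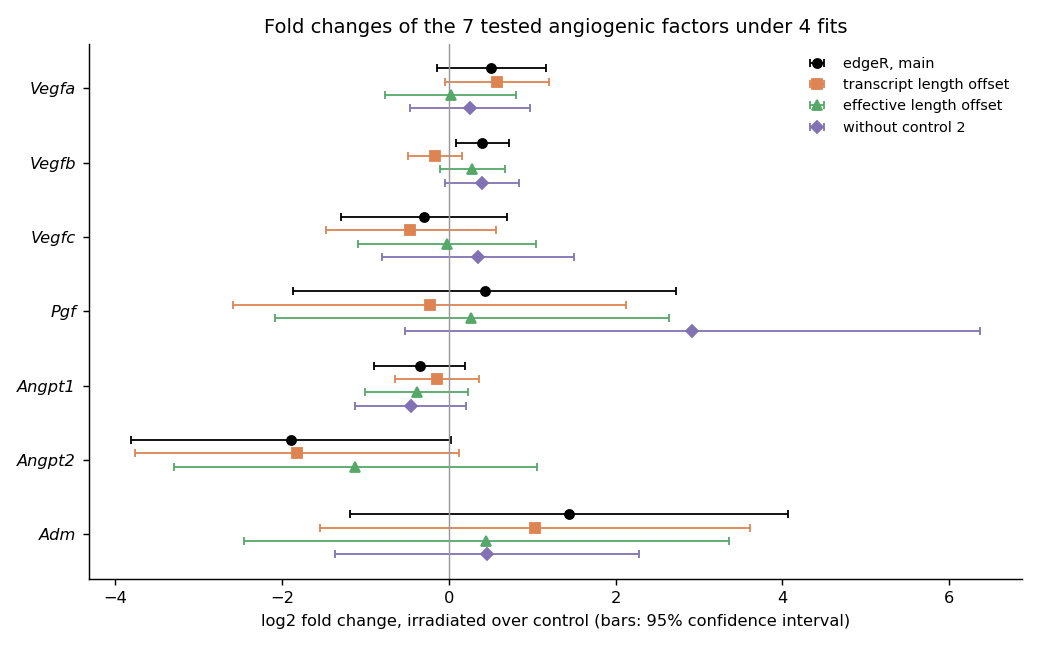
Log2 fold change of the 7 tested factors (horizontal axis, irradiated over control, bars are 95% confidence intervals) in the edgeR comparison and with an offset for transcript length, with an offset for effective length and without control replicate 2, where Angpt2 was not tested. The interval of Vegfb alone excludes 0 in the first comparison (0.08 to 0.72), and its estimate lies at -0.17 with the length offset.

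The receptors and other genes around these factors were examined by lists of named genes. Of 10 receptor genes, 6 were tested, 1 was called as higher and 0 as lower, with a median log2 fold change of -0.27. For all lists the background is the 12.7% of all tested genes called as higher and the 13.0% called as lower, and with so few genes a list a share near these is no result about the list. The call was Ramp3, which pairs with Calcrl to form an adrenomedullin receptor: it had 48 and 66 reads in the controls and 132, 170 and 191 reads after irradiation (log2 fold change 1.68 ± 0.36, edgeR adjusted p = 0.0147). The adjusted p was 0.0803 without control replicate 2, 0.0577 without irradiated replicate 2 and 0.0745 with the offset for transcript length (log2 fold change 1.12). Its partner Calcrl had 0 to 2 reads in every library. Nrp1, the VEGF coreceptor, had 32.9 and 21.5 TPM in the controls and 17.5, 11.7 and 13.5 TPM in the irradiated libraries (log2 fold change -0.64 ± 0.23, adjusted p = 0.074, and 0.0479 by DESeq2). In CPM the groups of Nrp1 overlapped, at 58.8 and 37.7 against 37.8, 26.8 and 27.9. Its log2 fold change was -0.27 without control replicate 2 and -0.91 without control replicate 3, so its size depended on the control used. Tek was present at 9.43 and 11.0 TPM in the controls and 7.47, 7.24 and 10.3 TPM after irradiation (log2 fold change 0.00 ± 0.19, adjusted p = 0.999).

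Other ligands held 20 genes, of which 11 were tested, 0 were called as higher and 1 as lower (median log2 fold change 0.29). Mdk, the heparin-binding growth factor midkine, fell from 59 and 46 reads to 7, 10 and 16 reads (log2 fold change -2.09 ± 0.59, edgeR adjusted p = 0.036), a call that was lost whichever library was left out (adjusted p from 0.0524 to 0.147). With the offset for transcript length it was -2.72. The most abundant were Hdgf (428 and 465 against 407, 402 and 499 TPM) and pleiotrophin, Ptn (70.8 and 106 against 103, 109 and 102 TPM), whose groups overlapped in TPM but in CPM were higher in all irradiated libraries. Ptn had a log2 fold change of 0.53 (edgeR adjusted p = 0.0706). It was called by DESeq2 (0.0403), with the offset for GC content (0.0241) and without control replicate 3 (0.0174), and was at 0.10 with the offset for transcript length. Among 8 inhibitors of vessel growth 7 were tested and 1 was lower (median 0.41). It was vasohibin 1, Vash1, at 171 and 89.3 TPM in the controls and 29.8, 32.4 and 59.4 TPM in the irradiated libraries (log2 fold change -1.42 ± 0.33, adjusted p = 0.0204). The adjusted p of Vash1 was 0.145 without control replicate 2, 0.0671 without irradiated replicate 1 and 0.0516 without irradiated replicate 2. Its relative Vash2 had a log2 fold change of -0.08 (adjusted p = 0.754). None of 5 tested processing enzymes, of 9 listed, was called (edgeR, with 1 at an unadjusted p under 0.05; median -0.04). They included Pam, which amidates adrenomedullin (log2 fold change 0.00), and Pcsk7 (-0.04).

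Of 12 regulators of Vegfa 10 were tested, 2 were called as higher and 3 as lower, with a median of -0.31. Of all tested genes, 12.7% were called as higher and 13.0% as lower. With 10 tested genes the list is too small to read its counts against these shares. Egln3, an oxygen sensor that marks HIF for destruction and is itself a HIF target, rose from 15.9 and 20.1 TPM to 29.4, 30.5 and 31.2 TPM (log2 fold change 1.05 ± 0.17, edgeR adjusted p = 0.00919). Vhl, which ubiquitinates HIF, rose from 27.7 and 29.7 TPM to 33.9, 32.8 and 37.3 TPM (0.60 ± 0.14, adjusted p = 0.0199). The transcription factor Sp1 fell by 0.90 on the log2 scale (adjusted p = 0.0108), the HIF inhibitor Hif1an by 0.73 (adjusted p = 0.0323) and the HIF partner Arnt by 0.48 (adjusted p = 0.049). With the offset for transcript length Sp1 and Hif1an were both at -0.19, Arnt was at -0.25, and none of these 3 was called. Without control replicate 2 no regulator was called, and adjusted p was 0.0546 for Egln3, 0.0931 for Vhl and 0.0672 for Sp1. Hif1an also lost its call without irradiated replicate 1 (adjusted p = 0.0868) or 2 (0.0908), Vhl without irradiated replicate 2 (0.0672) or with the offset for transcript length (0.0507), and Arnt without any one of the irradiated libraries (0.0844 to 0.158). Hif1a itself was at -0.40 (adjusted p = 0.0803) and Egln1 at 0.51 (adjusted p = 0.0608).

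A list of 10 HIF target genes outside the angiogenic factors, from glycolysis, pH control and mitochondrial turnover, was chosen with earlier results of these data known, so its count is a description. All 10 were tested and called as higher, beside 12.7% of all tested genes, with a median log2 fold change of 1.59. Bnip3, a mitophagy receptor, rose from 158 and 195 TPM to 579, 461 and 454 TPM (log2 fold change 1.84 ± 0.19, edgeR adjusted p = 0.00825). The glycolytic Ldha (1.30 ± 0.16), Pgk1 (1.34 ± 0.16) and Aldoc (2.24 ± 0.24) and the hypoxia-induced Higd1a (1.86 ± 0.31) and Ankrd37 (2.44 ± 0.49) also rose. The count was 9 of 10 with the offset for transcript length (median 1.26, with Bnip3 at 1.46, Ldha at 0.84 and Pgk1 at 0.98) and 4 of 10 without control replicate 2 (median 1.44). Of the HIF targets among the angiogenic factors, Vegfa (0.51, interval -0.14 to 1.17) and Adm (1.44, interval -1.19 to 4.07) did not pass. The interval of Vegfa held the smallest value on the list, the 0.57 of the glucose transporter Slc2a1, and ended below the median of the list, and that of Adm held both.

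**Figure D5:**
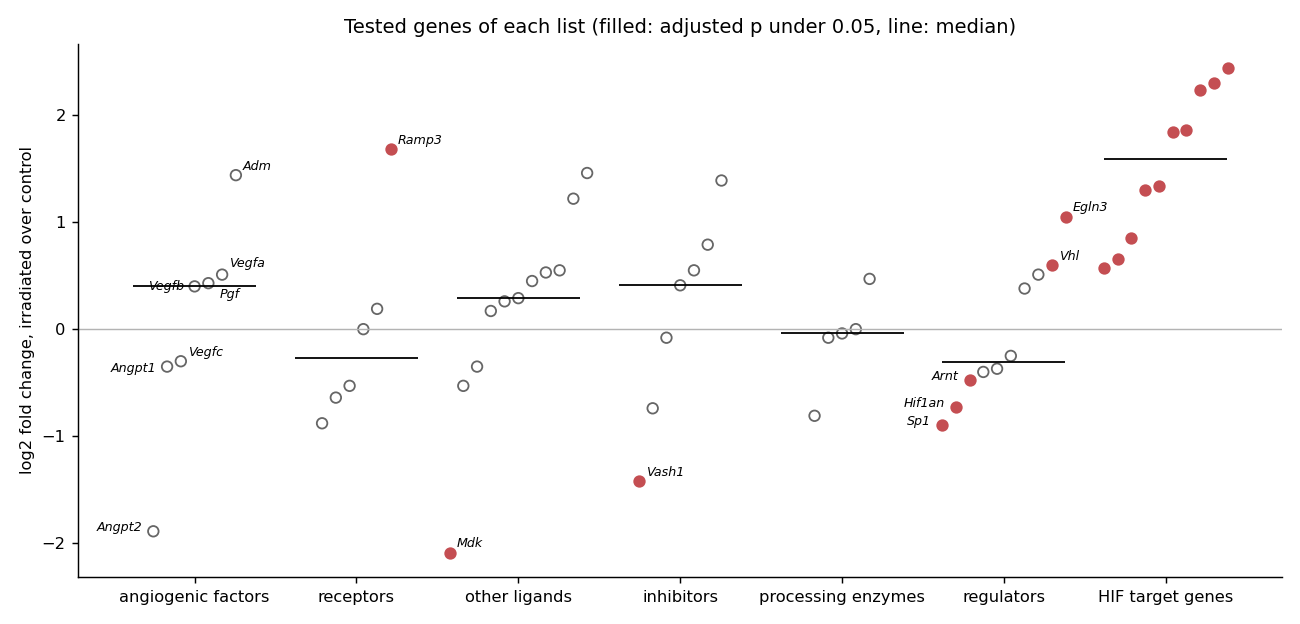
Log2 fold change (vertical axis, irradiated over control) of each tested gene, grouped by list, with filled points for an adjusted p under 0.05 and a line at each list's median. The 7 angiogenic factors hold no filled point, and all 10 HIF target genes are filled.

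By its profile over the 5 libraries, Vegfa was most like Ahsa1 (Pearson r of log2 CPM 0.9987), P3h1 (0.9975) and Znrd1as (0.9973), out of 14105 other tested genes. The points are 5 libraries and share their depth and length differences, so these values are descriptions. None of these 3 genes was called, with log2 fold changes of 0.52, 0.37 and 0.43.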

How the data were processed

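Groups and replicate numbers came from the sample labels. The authors quantified reads with Salmon (0.8.2 in the submitters' processing notes, which also name DESeq2 1.22.2 and mm10) and deposited estimated counts per transcript, not scaled, and TPM, scaled to depth and length within each library. The annotation release and strand setting are not given in the sources used here. Transcripts were matched to GENCODE M21 (112762 of 113116, 99.69%) and summed to genes, and estimated counts were rounded. edgeR 4.0.16 (R 4.3.3) was run with its filterByExpr filter, TMM factors and quasi-likelihood test, with no block, and p-values were adjusted after Benjamini and Hochberg. Depth was 21185956 to 31036317 reads, the floor was 3 reads, and floors cover counting error only. Shares and TPM were compared by exact permutation tests (scipy 1.17.1), 2 libraries against 3.

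The angiogenic factors and all lists were chosen with earlier results of these data known. Named were all 8 factors, from each list up to 6 called genes by smallest p and the 2 with the highest mean TPM, and the 3 genes most like Vegfa; Ramp3's partner Calcrl, the marker genes and Slc2a1 were named beside these after their values were seen. Lists are described by counts and medians, and 1 marker gene is not reported here. Alternatives were DESeq2 1.42.0, other normalizations and filters, offsets for transcript length, GC content (splines, 5 degrees of freedom) and effective length, protein-coding genes, a replicate block, each library left out and, chosen after seeing the data, coding transcripts alone. Scripts were tested on simulated counts. No pair of libraries agreed within counting error. The single-cell samples were not analysed here.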

Additional observations from a re-analysis of the deposited data

How the results depend on the processing

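Over the alternatives, 109 of 118 fold changes of single factors kept their direction and side of the threshold. The number of factors called was 1 with upper quartile normalization (Vegfb), 1 with no filter on low counts (Vegfa) and 0 to 1 when single libraries were left out (Adm, without control replicate 3), and 0 otherwise. Directions turned for Vegfb with the transcript length offset (-0.17) and with the replicate block plus that offset (-0.20), for Pgf with the length offset (-0.23) and with single libraries left out (-0.40 without control replicate 3 to 2.92 without control replicate 2), for Vegfc with single libraries left out (-0.71 without control replicate 3 to 0.35 without control replicate 2) and for Angpt1 with the block plus offset (0.00). The cause was not tested. Genes called over all were 1786 higher and 1827 lower, against 422 and 305 with the length offset, 602 and 494 with the replicate block, 0 and 2 with the block plus offset, and 95 to 2232 higher and 175 to 1977 lower with single libraries left out, the lowest without control replicate 2, which leaves 1 control. Without irradiated replicate 1 they were 832 and 909, and without irradiated replicate 2, 684 and 834.

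The block rests on the numbers 2 and 3 alone. Same-numbered libraries did not deviate together (correlation of deviations -0.196 over 14106 genes). This compares a single difference per group, so it cannot decide whether equal numbers were handled together, and the labels do not say. Vegfa had a log2 fold change of 0.75 with the block (adjusted p = 0.15). Of the 10 HIF target genes, 6 were called with the block and 0 with the block plus length offset (median log2 fold change 1.14).

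For the Vegfa shares, the difference for both exons was -15.3 points with coding transcripts as the total and -14.4 to 0.139 points with single libraries left out. The difference for neither exon ranged from -1.28 (without irradiated replicate 1) to 9.20 points. Adm, Angpt2, Pgf and Angptl4 had at most 33 reads in a library, so only large changes of these could have been detected.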
